A study of Schmidtea mediterranea with 6 samples.

Results

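HSPD1 (also called HSP60) is the chaperonin of the mitochondrial matrix, and 2 transcripts of the planarian Schmidtea mediterranea carry its name in the gene tables of the study, dresden_comp141_c0_seq1 (hereafter comp141) and dresden_comp6294_c0_seq1 (hereafter comp6294). These are 2 of the 26558 transcripts in the deposited table, and both were among the 18062 with a mean of at least 1 normalised TPM (an abundance relative to the whole library, corrected for transcript length and then rescaled between libraries by the authors). They were chosen because comp141 was higher and comp6294 lower in cct3A(RNAi) planarians than in gfp(RNAi) controls. The opposite directions are therefore the reason for the choice and not a result, and the levels, shares, ratios and differences of the HSPD1 transcripts are given below as descriptions, with no test.

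In other animals HSPD1 forms barrel-shaped rings in which newly imported mitochondrial proteins fold, with a lid made of the co-chaperonin HSPE1. It belongs to the same broad family as TRiC, the chaperonin of the cytosol whose subunits are the CCT proteins and which folds actin and tubulin. Other chaperones of the mitochondrial matrix include HSPA9 (mortalin), the mitochondrial HSP70 that pulls proteins in through the import channel, its J-domain partner DNAJA3, and TRAP1, the mitochondrial HSP90.

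The study asked which transcripts depend on cct3A, a TRiC subunit, in regenerating planarians that it describes as starved. The cct3A(RNAi) group was 3 libraries from asexual planarians injected with double-stranded RNA against cct3A, and the gfp(RNAi) group was 3 libraries from asexual planarians injected with double-stranded RNA against gfp, a sequence planarians lack. Injection, starvation, amputation and collection at 72 hours of regeneration (72hR) were shared by both groups, and each library held 5 pooled trunks, although the source label reads whole planarian. RNA of all cell types was measured together, so fewer cells of a type and less RNA per cell cannot be told apart. cct3A itself was at 13.3, 13.4 and 14.0 normalised TPM in the cct3A(RNAi) libraries, against 386, 387 and 403 in the gfp(RNAi) libraries. The values of each library summed to between 1004959 and 1048445 in cct3A(RNAi) planarians and between 959963 and 999939 in controls, and the depth of each library is unknown because these values do not keep it.

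comp141 was the abundant HSPD1 transcript. Its level was 925, 879.8 and 901 normalised TPM in cct3A(RNAi) replicates 1, 2 and 3, against 782, 785 and 827 in gfp(RNAi) replicates 1, 2 and 3. Every cct3A(RNAi) library was above every control, and the nearest libraries, cct3A(RNAi) replicate 2 and gfp(RNAi) replicate 3, were at 879.8 and 827 normalised TPM. Among all tested transcripts 15.8% were likewise higher without overlap, 16.1% were lower without overlap and 31.9% did not overlap in either direction, and since the transcript was chosen on this contrast nothing is read from its place among them. The means were 902 ± 22.4 in cct3A(RNAi) planarians and 798 ± 25.0 in controls (SD, n = 3 each), a difference of 13.0%. On the scale of log2(normalised TPM + 0.5) the change was 0.18 (SE 0.033). Within each library comp141 ranked between 176th and 188th of the 26558 transcripts in cct3A(RNAi) planarians and between 185th and 189th in controls, so it was among the abundant messages of these trunks in every library.

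comp6294 was a low transcript. It was at 7.58, 7.57 and 7.98 normalised TPM in cct3A(RNAi) replicates 1, 2 and 3, against 7.94, 8.69 and 9.31 in gfp(RNAi) replicates 1, 2 and 3. Here the groups overlapped, since cct3A(RNAi) replicate 3 was just above gfp(RNAi) replicate 1. The means were 7.71 ± 0.234 in cct3A(RNAi) planarians and 8.65 ± 0.686 in controls (SD, n = 3 each), a difference of -10.8% and a log2 change of -0.15 (SE 0.067). The controls spread more, with a coefficient of variation of 3.03% in cct3A(RNAi) libraries and 7.93% in gfp(RNAi) libraries. Leaving out gfp(RNAi) replicate 3 brought the log2 change to -0.10, and leaving out gfp(RNAi) replicate 1 brought it to -0.21. In rank comp6294 lay between 10137th and 10365th in cct3A(RNAi) planarians and between 9550th and 10288th in controls.

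**Figure D1:**
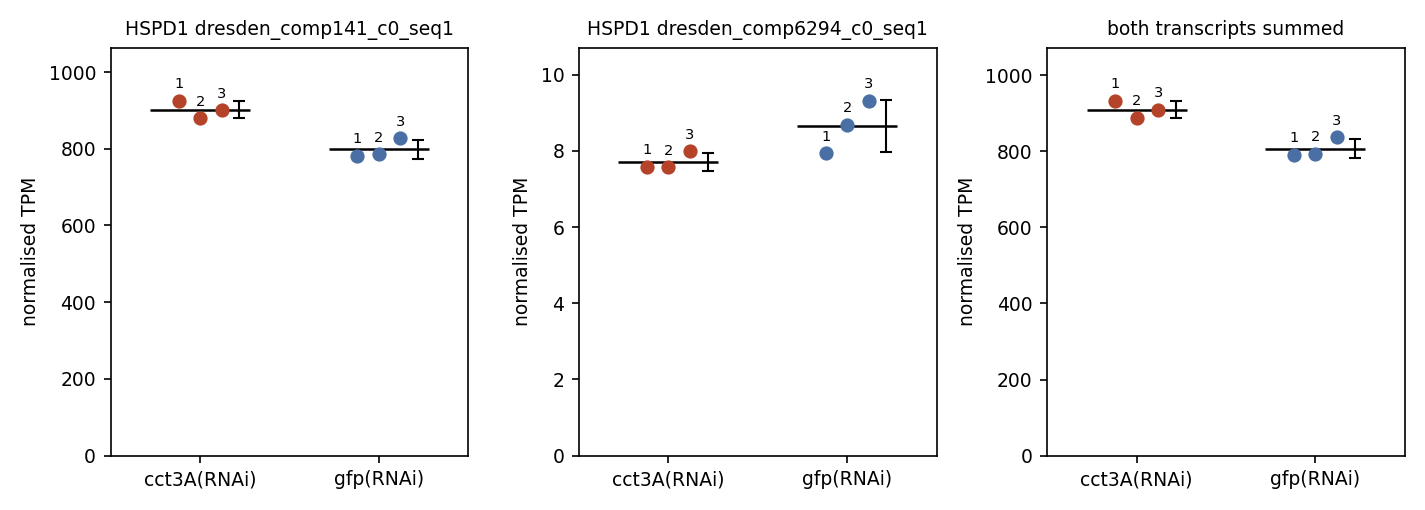
Level of each HSPD1 transcript and of their sum in normalised TPM, with 1 point per library numbered by replicate, the group mean as a line and the SD as a bar, on axes that start at 0 and differ in range between panels. For comp141 and the sum all 3 cct3A(RNAi) libraries lie above all 3 gfp(RNAi) libraries, and for comp6294 the groups overlap at 7.98 and 7.94 normalised TPM.

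The SD of log2 values within groups was 0.040 for comp141 and 0.082 for comp6294, against a median of 0.081 over all 18062 transcripts tested. The log2 change of comp141 was larger than that of 90.2% of the tested transcripts, and that of comp6294 was larger than that of 18.5%. Over all tested transcripts 50.9% had a log2 change above 0. These positions describe the choice of the transcripts, which used the same contrast.

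Nearly all HSPD1 signal came from comp141, and the summed level followed it. The sum of both transcripts was 932, 887 and 909 normalised TPM in cct3A(RNAi) replicates 1, 2 and 3, against 790.2, 794 and 836 in gfp(RNAi) replicates 1, 2 and 3, without overlap. The sum averaged 909 ± 22.4 normalised TPM in cct3A(RNAi) planarians and 807 ± 25.6 in controls (SD, n = 3 each), 12.7% more and a log2 change of 0.17 (SE 0.033). Of this difference in means, comp141 contributed 103 normalised TPM and comp6294 -0.931.

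The share of comp6294 in the sum does not depend on any factor that scales a whole library. It was 0.814%, 0.854% and 0.879% in cct3A(RNAi) replicates 1, 2 and 3, against 1.005%, 1.09% and 1.11% in gfp(RNAi) replicates 1, 2 and 3. All 3 cct3A(RNAi) shares were below all 3 control shares, and the level of comp6294 overlapped. The transcripts were chosen for opposite directions, so a lower share follows from the choice. The mean share was 0.849 ± 0.0328% in cct3A(RNAi) planarians and 1.07 ± 0.0579% in controls (SD, n = 3 each), a difference of -0.222 percentage points (SE 0.0384). comp141 made up the remaining 99.2% in cct3A(RNAi) planarians and 98.9% in controls. Put as a ratio, comp141 was 122, 116 and 113 times comp6294 in cct3A(RNAi) replicates 1, 2 and 3, against 98.5, 90.4 and 88.8 times in gfp(RNAi) replicates 1, 2 and 3. The log2 ratio of comp6294 to comp141 was -6.87 in cct3A(RNAi) planarians and -6.53 in controls, a difference of -0.34 (SE 0.057).

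The levels moved with some scalings of the libraries. Rescaling all libraries to the same sum undoes the rescaling between libraries done by the authors. The median log2 change of all tested transcripts was then -0.067, against 0.0034 as deposited. comp141 was then between 859 and 901 in cct3A(RNAi) libraries and between 813 and 827 in controls, still without overlap, with a log2 change of 0.10 (SE 0.021). comp6294 was between 7.39 and 7.62 in cct3A(RNAi) libraries and between 8.25 and 9.31 in controls, so that under this scaling its groups no longer overlapped, with a log2 change of -0.22 (SE 0.052). After quantile normalisation, which forces the same distribution of values on every library, the groups overlapped for comp141, comp6294, their sum and the share, and the changes of comp141 and comp6294 were 0.075 and -0.11. Median-of-ratios scaling, which divides each library by its median ratio to the average library, left the changes of comp141 and comp6294 at 0.18 and -0.15. The deposited values were already scaled by library, with the median change of 0.0034 given above, so this scaling had little left to change. The groups then overlapped for comp6294 only, as in the deposited values. The signs of all 4 quantities (comp141, comp6294, their sum and the share) were the same under each scaling. The transcripts were chosen for these signs, and the sum was nearly all comp141. The share cannot change with a factor for a whole library, so nothing is read from this.

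Whether the HSPD1 transcripts moved with other chaperones of the same compartment was read from the 4 other transcripts that the study's folding tables place in the mitochondrion. Of these, 0 passed the test over all transcripts (limma, adjusted p under 0.05, which 4.24% of tested transcripts passed). All 4 were higher in every cct3A(RNAi) library than in any control, as were 15.8% of all tested transcripts, with a median log2 change of 0.16 that was 0.085 with libraries of equal sum. HSPA9, DNAJA3 and DNAJC27 come, like comp141, from a table of raised folding transcripts that the study drew from these same libraries, so their direction is not independent evidence. TRAP1 and comp6294 come from tables made on other libraries of the study. The compartment is the tables' own label and was not checked in planarians. For some chaperones named below it differs from the location known in mammals.

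HSPA9 was the nearest of these transcripts to comp141 in level. HSPA9 (dresden_comp424_c0_seq1) was at 698, 650.5 and 687 normalised TPM in cct3A(RNAi) replicates 1, 2 and 3, against 599, 571 and 618 in gfp(RNAi) replicates 1, 2 and 3. Its log2 change was 0.19 (SE 0.044, limma adjusted p = 0.0578), just short of the threshold, which it passed when only transcripts with a mean of at least 5 normalised TPM were tested (adjusted p = 0.0403) and missed with libraries of equal sum (0.11, adjusted p = 0.0824). The ratio of summed HSPD1 to HSPA9 was 1.34, 1.36 and 1.32 in cct3A(RNAi) replicates 1, 2 and 3, against 1.32, 1.39 and 1.35 in gfp(RNAi) replicates 1, 2 and 3. The ratio overlapped between groups, with means of 1.34 ± 0.0218 in cct3A(RNAi) planarians and 1.35 ± 0.0352 in controls (SD, n = 3 each) and a difference of -0.014 (SE 0.024).

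DNAJA3 (dresden_comp805_c0_seq1), the J-domain protein that stimulates HSPA9 in mammals, was at 195, 191 and 183 normalised TPM in cct3A(RNAi) replicates 1, 2 and 3, against 162, 165 and 176 in gfp(RNAi) replicates 1, 2 and 3. Its log2 change was 0.18 (SE 0.042, limma adjusted p = 0.0574), and comp141 was 4.76 ± 0.148 times DNAJA3 in cct3A(RNAi) planarians and 4.77 ± 0.0703 times in controls (SD, n = 3 each). DNAJC27 (dresden_comp5753_c0_seq1), a J-domain protein, was at 41.3, 39.8 and 39.7 normalised TPM in cct3A(RNAi) replicates 1, 2 and 3, against 37.4, 34.5 and 37.5 in gfp(RNAi) replicates 1, 2 and 3 (log2 change 0.14, adjusted p = 0.0963). The ratios of comp141 to DNAJA3 and to DNAJC27 overlapped between groups.

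TRAP1 (dresden_comp1445_c0_seq1) was the one member of this list not picked on these libraries. It was at 111.1, 110.3 and 109.8 normalised TPM in cct3A(RNAi) replicates 1, 2 and 3, against 106.0, 106.3 and 108.6 in gfp(RNAi) replicates 1, 2 and 3, a log2 change of 0.045 (SE 0.028, limma adjusted p = 0.341) that turned to -0.030 (adjusted p = 0.603) with libraries of equal sum. comp141 was 8.17 ± 0.178 times TRAP1 in cct3A(RNAi) planarians and 7.46 ± 0.133 times in controls (SD, n = 3 each), without overlap. Since comp141 was chosen for its rise, nothing is read from this. Since normalised TPM is corrected for length, the levels can be ordered, and in both groups the order was comp141, HSPA9, DNAJA3, TRAP1, DNAJC27 and comp6294. The ranges of neighbours in this order did not overlap within either group.

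Transcripts of another mitochondrial function were set beside the chaperones. Of the 12 mitochondrial aminoacyl-tRNA synthetases, which charge tRNAs for translation inside the organelle, 0 passed the test. A log2 change above 0 was seen in 4 of them, against 50.9% of all tested transcripts, and their median was -0.027. With libraries of equal sum the median over all tested transcripts was -0.067, and 29.97% of them were above 0. The median of the 12 synthetases was then -0.099, and FARS2 alone among them was above 0 (0.0098). Their summed level was between 120.4 and 121.6 normalised TPM in cct3A(RNAi) libraries and between 121.8 and 124.9 in controls. The smallest p was that of EARS2 (dresden_comp14303_c0_seq1), which charges glutamate. EARS2 was at 4.01, 4.15 and 4.56 normalised TPM in cct3A(RNAi) replicates 1, 2 and 3, against 5.48, 5.28 and 5.31 in gfp(RNAi) replicates 1, 2 and 3. Its log2 change of -0.31 (SE 0.068) had a limma adjusted p of 0.0515 and passed with libraries of equal sum (-0.37, adjusted p = 0.0307). AARS2 (-0.11, adjusted p = 0.171), PARS2 (-0.084, 0.301) and FARS2 (0.083, 0.322), which charge alanine, proline and phenylalanine, were next by p.

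**Figure D2:**
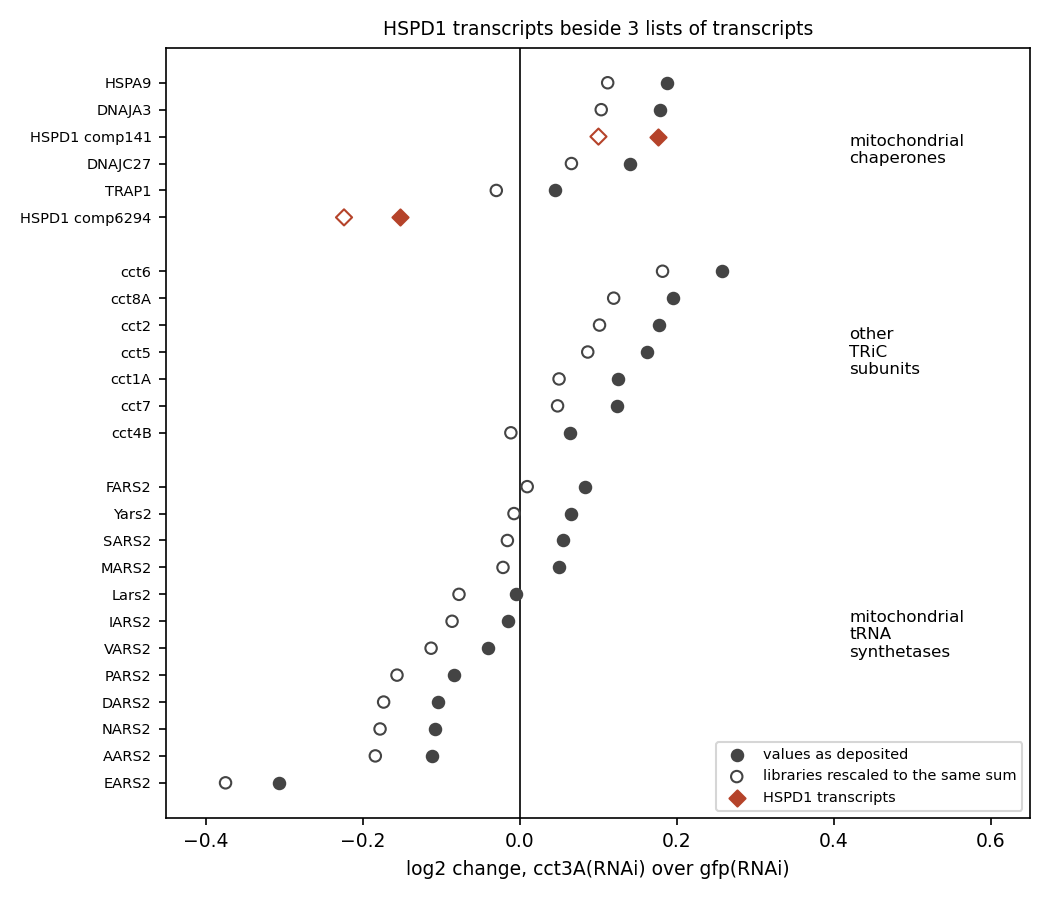
Log2 change, cct3A(RNAi) over gfp(RNAi), of the HSPD1 transcripts (diamonds) beside other mitochondrial chaperones, the 7 other TRiC subunits and 12 mitochondrial tRNA synthetases, with filled symbols for the values as deposited and open symbols for libraries rescaled to the same sum. comp141 at 0.18 sits between DNAJA3 and DNAJC27, comp6294 at -0.15 lies left of every other chaperone shown, and rescaling moves every symbol to the left.

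The TRiC subunits, the cytosolic relatives of HSPD1, gave a second yardstick. Of the 7 other subunits, 4 rose (limma, adjusted p under 0.05) and 0 fell, against 1.78% and 2.46% of all tested transcripts. Their median log2 change was 0.16 as deposited and 0.087 with libraries of equal sum, and 6 of the 7 stand in the study's table of raised folding transcripts. Their changes ranged from 0.064 for cct4B (adjusted p = 0.247) to 0.26 for cct6 (adjusted p = 0.0204), a span that holds the 0.18 of comp141. After rescaling to the same sum 1 of the 7 was called higher, against 103 of all tested transcripts, and cct4B was at -0.011. When 1 library was left out, 0 to 2 of the 7 passed, against 24 to 489 of all tested transcripts. The 7 subunits had 0 calls where the omitted library was replicate 1 of either group or the gfp(RNAi) library of replicate 2.

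The mean level of the 7 subunits was 288 ± 4.67 normalised TPM in cct3A(RNAi) planarians and 257 ± 4.43 in controls (SD, n = 3 each). Summed HSPD1 was 3.18, 3.13 and 3.16 times that mean in cct3A(RNAi) replicates 1, 2 and 3, against 3.09, 3.14 and 3.20 times in gfp(RNAi) replicates 1, 2 and 3. This ratio overlapped between groups and differed by 0.014 (SE 0.036). Ratios to single subunits differed among themselves. comp141 was 3.18 ± 0.0536 times cct6 in cct3A(RNAi) planarians and 3.37 ± 0.0400 times in controls, and 6.43 ± 0.109 times cct4B in cct3A(RNAi) planarians and 5.95 ± 0.0418 times in controls (SD, n = 3 each). Neither of these ratios overlapped between groups, nor did that to cct1A, while those to cct2, cct5, cct7 and cct8A did. How many of all tested transcripts have a ratio to comp141 without overlap was not counted. Since comp141 was chosen for its rise, nothing is read from which ratios overlapped.

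**Figure D3:**
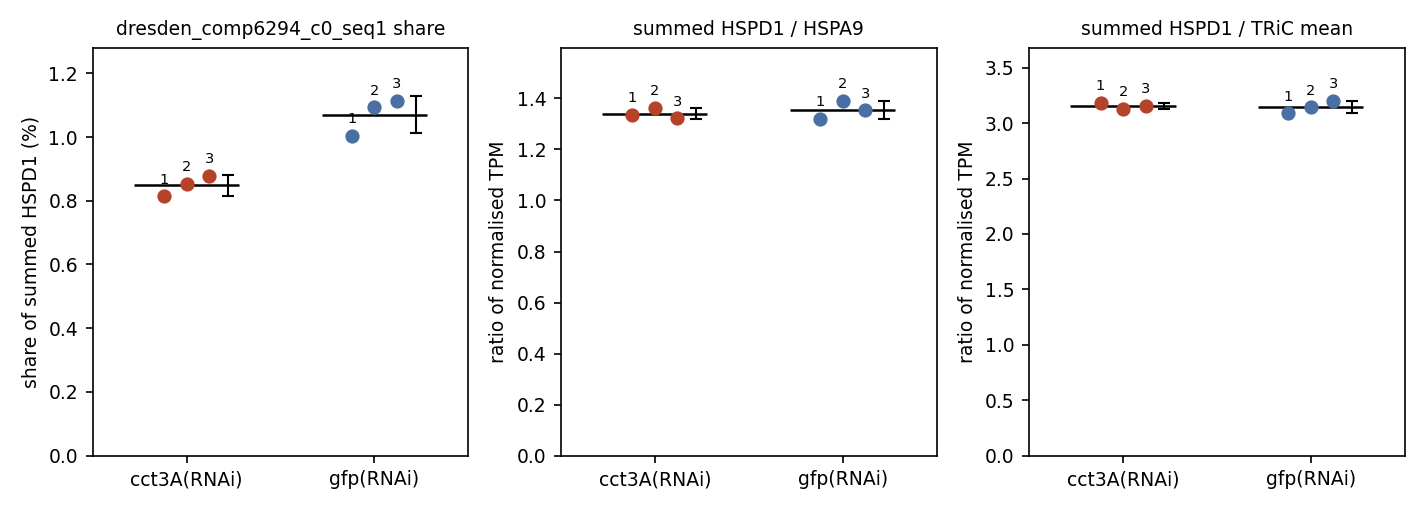
Share of comp6294 in summed HSPD1 (left, percent), ratio of summed HSPD1 to HSPA9 (middle) and ratio of summed HSPD1 to the mean of 7 TRiC subunits (right), with 1 point per library numbered by replicate, the group mean as a line and the SD as a bar. The share is lower in all 3 cct3A(RNAi) libraries (0.849% on average, 1.07% in controls), whereas both ratios overlap between the groups.

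Profiles over the 6 libraries were then compared with those of 142 named transcripts from the study's tables. The measure was the root mean square difference of log2 values after each transcript's own mean was subtracted, so smaller is more alike. The named transcripts are nearly all genes of protein folding or translation, and 34 of them stand in the table of raised folding transcripts, so the kinds of gene found nearest are set by the source of the names. The difference between groups makes up much of each profile, and no p was computed.

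For comp141 the nearest named transcripts were the TRiC subunit cct8A (CCT8, 0.0166, 10th of 18061), DNAJA4 (0.0204, 37th), HSPA4L (0.0212, 41st), the TRiC subunit cct5 (0.0239, 71st) and HSPA9 (0.0259, 101st). DNAJA4 is a J-domain co-chaperone of cytosolic HSP70, and HSPA4L is a nucleotide exchange factor of the HSP110 group. All 5 stand in the table of raised folding transcripts. DNAJA4 was at 1627, 1526 and 1627 normalised TPM in cct3A(RNAi) replicates 1, 2 and 3, against 1400.5, 1375 and 1447 in gfp(RNAi) replicates 1, 2 and 3 (log2 change 0.18, limma adjusted p = 0.0629). HSPA4L rose by 0.19 (adjusted p = 0.0422), and it was at 105, 100.1 and 98.9 normalised TPM in cct3A(RNAi) replicates 1, 2 and 3, against 88.6, 86.6 and 91.4 in gfp(RNAi) replicates 1, 2 and 3. The HSPA4L call was lost in all 6 fits that left out 1 library (adjusted p at most 0.134). For each of these 5 transcripts, as for comp141, no control reached the level of any cct3A(RNAi) library, as for 15.8% of all tested transcripts. The 5 were picked for their likeness to comp141 over these same libraries, so nothing is read from this.

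For comp6294 the nearest named transcripts were Hyou1 (0.0489, 65th), PPIB (0.0496, 68th), PDIA5 (dresden_comp821_c0_seq1, 0.0544, 116th), DNAJC3 (0.0555, 128th) and SIL1 (0.0623, 241st). In mammals these are proteins of the endoplasmic reticulum (ER): Hyou1 is a large HSP70 relative and SIL1 an exchange factor for BiP, DNAJC3 a J-domain partner of BiP, PPIB a prolyl isomerase and PDIA5 a disulphide isomerase. The study's tables place PDIA5 in the ER and the other 4 in the cytosol. None of the 5 stands in the table of raised folding transcripts. Hyou1 was at 37.7, 37.2 and 38.2 normalised TPM in cct3A(RNAi) replicates 1, 2 and 3, against 40.4, 42.2 and 42.1 in gfp(RNAi) replicates 1, 2 and 3 (log2 change -0.14, limma adjusted p = 0.0613).

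DNAJC3 fell by 0.18 (limma adjusted p = 0.0434), a call lost in all 6 fits that left out 1 library (adjusted p at most 0.126). PPIB (-0.14, adjusted p = 0.0574), PDIA5 (-0.089, 0.435) and SIL1 (-0.14, 0.192) did not pass. PDIA5 and SIL1 overlapped between groups, as comp6294 did. The HSPD1 transcripts themselves were far apart, with a root mean square difference of 0.173, and comp6294 stood 12036th in the order of likeness to comp141.

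**Figure D4:**
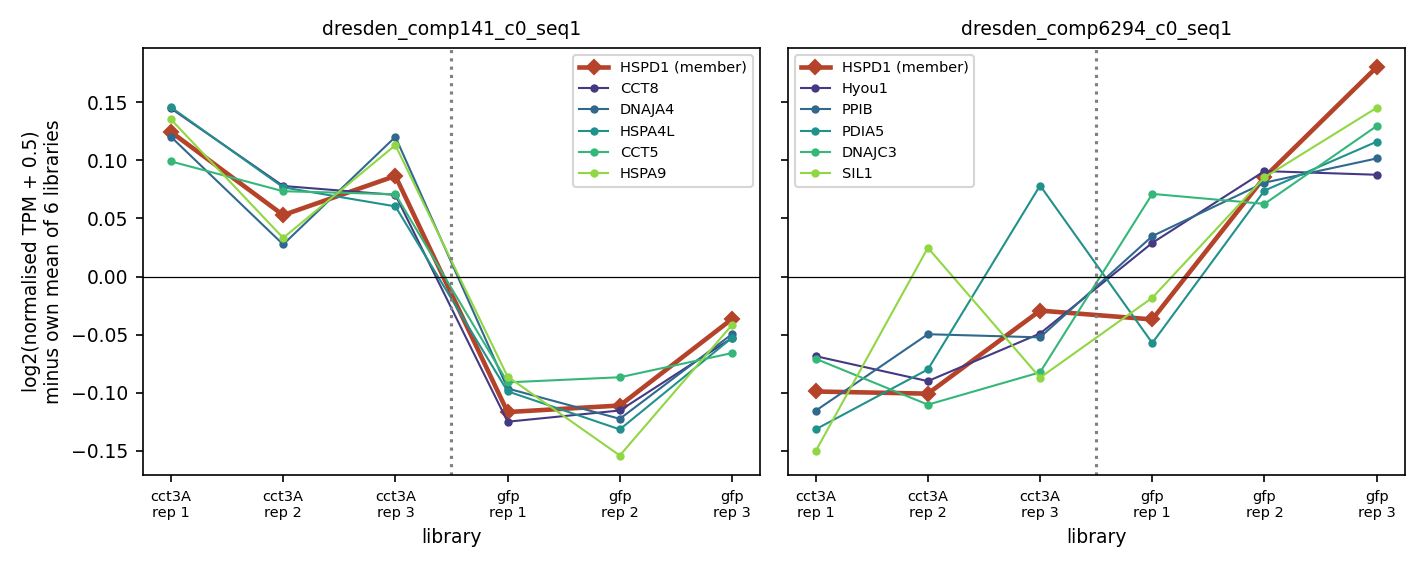
Level of each HSPD1 transcript (thick line) and of its 5 nearest named transcripts in every library, as log2(normalised TPM + 0.5) minus the transcript's own mean over the 6 libraries. Lines only link the points of a transcript, and the dotted line separates cct3A(RNAi) from gfp(RNAi) libraries. On the left all transcripts drop at the dotted line as comp141 does, and on the right their control means are higher, with overlap between libraries for PDIA5 and SIL1.

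Other names carried by several transcripts also had copies with opposite signs. Among the 17 other symbols carried by at least 2 tested transcripts, the signs of the log2 changes differed in 7, and in 5 after rescaling to the same sum. In 0 of them was one copy called higher and another lower. Of the 11 other symbols with exactly 2 copies, 5 differed in sign. The span between the HSPD1 transcripts was 0.33 on the log2 scale, and 4 of the 17 symbols had a larger span. A span can grow with the number of copies, and among the 11 symbols with exactly 2 copies 1 (TUBA1A) had a larger span than HSPD1.

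TUBB4B, a beta-tubulin, had the largest span (0.39 over 5 copies), followed by the cytosolic HSP70 HSPA8 (0.35 over 5 copies) and the alpha-tubulin TUBA1A (0.34 over 2 copies), and EIF2S1, a translation initiation factor subunit named here after its values were seen, was at 0.33 over 3 copies. All copies of TUBB4B and HSPA8 had changes above 0, and 5 of 5 and 4 of 5 stand in the table of raised folding transcripts. TUBA1A, like HSPD1, had 2 copies of opposite sign, with 1 copy in that table: dresden_comp718_c0_seq1 rose by 0.19 (limma adjusted p = 0.0466, lost in all 6 fits that left out 1 library) and dresden_comp2143_c0_seq1 was at -0.15 (adjusted p = 0.163). Its copies were of like abundance, with a fold of 1.08 between them in controls, whereas comp141 had 92.3 times the mean level of comp6294 in controls. A larger fold between the highest and lowest copy was found for 3 symbols, named after their values were seen, HSPA8 (214), BIP (222) and EEF1A1 (328).

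Because planarian stem cells and their differentiated progeny can change in number, transcripts high in sorted X1 cells (dividing stem cells) and in Xins cells (differentiated cells that survive irradiation) were examined. They were taken from the study's comparison of sorted cells in other libraries, from animals starved for 1 day, of which only the first 200 in each direction were used, and neither list holds an HSPD1 transcript. Of 199 X1 transcripts tested, 9 rose and 13 fell (4.52% and 6.53%, against 1.78% and 2.46% of all tested transcripts), and the median log2 change was -0.039. Of 200 Xins transcripts tested, 11 rose and 8 fell (5.5% and 4%), and the median was 0.045. With 1 library left out, 2 to 13 X1 and 0 to 9 Xins transcripts passed, against 24 to 489 of all tested transcripts. The summed level of the X1 list was between 5558 and 5872 normalised TPM in cct3A(RNAi) libraries and between 5444 and 5638 in controls, which overlapped, and that of the Xins list was between 21304 and 22113 in cct3A(RNAi) libraries and between 19749 and 20201 in controls. After rescaling to the same sum the medians were -0.11 for X1 and -0.029 for Xins, against -0.067 over all tested transcripts. The split of calls shifted to 5 higher and 21 lower for X1 and to 2 higher and 10 lower for Xins. Calls over all tested transcripts shifted in the same direction under this scaling, to 103 higher and 1156 lower. No tested transcript of either list was at 0 in any library, and the part of cell composition in the HSPD1 values was not tested.

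Whether comp141 and comp6294 share stretches of sequence was not examined, since no transcript or protein sequence was used here. The pseudo-alignment behind these values divides reads that match several transcripts between them, so the level of a low transcript beside an abundant one of the same name can depend on that division, and its part in the share of comp6294 was not tested.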

How the data were processed

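RNA-seq was done on 6 libraries, 3 of cct3A(RNAi) and 3 of gfp(RNAi) trunks at 72hR, grouped by their titles. The authors selected reads that map to the Dresden planarian transcriptome, pseudo-aligned them with kallisto (the submitters' processing notes give version 0.43.0) and used sleuth for normalisation. What they deposited is a signal, namely TPM after division by the size factor of each library, and low values were kept. They are not counts, so no count model or counting interval was used. Plain TPM had been assumed when the test was chosen, and it was kept for the rescaled values. There were 0 columns not assigned to a library and 0 pairs of identical libraries.

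Values were transformed to log2(value + 0.5), which understates changes of low transcripts. The test was that of limma (R 4.3.3, package version 3.58.1, eBayes with a trend, two-sided) on transcripts averaging at least 1 across the 6 libraries, with Benjamini-Hochberg adjustment over 18062 transcripts at a threshold of 0.05. The calculation was tested on simulated data. The labels name no separate cultures, so p-values measure the spread between pools of trunks. SE values of HSPD1 quantities come from the 3 and 3 libraries. The members and lists were chosen with earlier results of these data known.

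Names were taken from the study's tables for 150 transcripts, of which 142 were tested. The named genes were the HSPD1 transcripts, cct3A, the other mitochondrial chaperones, the 4 mitochondrial tRNA synthetases of smallest p, the highest and lowest TRiC subunit, the 5 named transcripts most like each HSPD1 transcript and the 3 symbols whose copies differed most. The X1 and Xins lists come from a table held here only in part. Alternatives were other pseudocounts, filters, scalings and variance models, a replicate block, and fits that omit 1 library.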

Additional observations from a re-analysis of the deposited data

How the results depend on the processing

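Rescaling to the same sum gave log2 changes of 0.10 for comp141 and 0.097 for the HSPD1 sum, and quantile normalisation gave 0.075 for comp141, 0.073 for the sum and -0.12 percentage points for the comp6294 share. No sign of these quantities changed under any alternative, while rescaling turned TRAP1 to -0.030 and cct4B to -0.011. The signs of the HSPD1 transcripts were the reason for their choice, so nothing is read from their staying the same. With 1 library left out in turn, comp141 ranged from 0.16 to 0.20, comp6294 from -0.21 to -0.10, the sum from 0.15 to 0.20 and the share from -0.255 to -0.201 percentage points. For comp6294 the lowest value came without gfp(RNAi) replicate 1 and the highest when gfp(RNAi) replicate 3 was omitted.

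The 766 transcripts called (321 higher, 445 lower) became 94 with no filter, 1284 with a mean of at least 5, 1259 (103 higher, 1156 lower) after rescaling to the same sum, 33 without a variance trend, and 24 to 489 with 1 library left out, so that each of the 6 libraries moved this count. The 0 calls among mitochondrial chaperones became 2 with a mean of at least 5, and the 0 among tRNA synthetases became 1 after rescaling. The 4 TRiC calls became 1 with no filter, 1 after rescaling, 1 after quantile normalisation, 0 without a trend and 0 to 2 with 1 library left out. The 22 X1 calls (9 higher, 13 lower) became 26 (5 higher, 21 lower) after rescaling, 4 with no filter, 2 without a trend and 2 to 13 with 1 library left out. The 19 Xins calls (11 higher, 8 lower) became 3 with no filter, 12 (2 higher, 10 lower) after rescaling, 11 after quantile normalisation, 0 without a trend and 0 to 9 with 1 library left out. The causes of these shifts were not tested.

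Same-numbered libraries of the groups deviated together only weakly (r = 0.048, 0.10 and 0.047 across transcripts). Each library still correlated best with its own number, since unlike numbers gave r from -0.058 to 0.0082. Whether the numbers pair the libraries cannot be told from this, and the main fit did not pair them. With the replicate number as a block, 660 transcripts were called. Among them were 1 mitochondrial chaperone (HSPA9, limma adjusted p = 0.0485), 2 TRiC subunits, 15 X1 and 11 Xins transcripts. The SE of the comp6294 share was then 0.0156 percentage points, against 0.0384 without the block. With 3 libraries a group and no depth per library in these values, errors were taken only from the spread between libraries.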
